A study of Homo sapiens with 4 samples.

Results

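SLX1A and SLX1B, SULT1A1 to SULT1A4, BOLA2 and BOLA2B, and EIF3C and EIF3CL are genes of the short arm of human chromosome 16 that lie in or beside duplicated blocks of band 16p11.2, where copies of one gene share nearly all of their sequence. They are described here in LASCPC-01, a neuroendocrine prostate cancer (NEPC) cell line made by combined expression of NMYC and activated AKT1, after fluoxetine or PBS. The members were chosen by gene symbol on values measured in these same libraries, because SLX1B had the largest rise of any gene at 1 FPKM or more, and the other members are its copy, its neighbours and further copies in the same blocks. FPKM is the number of sequenced fragments on a gene, scaled by gene length and by library depth. Of the 10 members, 8 were in the table of 16376 genes, whereas SULT1A2 and BOLA2 were not analysed here. All 8 passed a filter that required a mean of at least 0.1 FPKM over the 4 libraries, as 12663 genes did.

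The study asked how fluoxetine, an antidepressant that blocks serotonin reuptake, affects the transcriptome of NEPC cells. Poly(A) RNA was sequenced from 2 PBS libraries and 2 fluoxetine libraries. The labels give the same cell line, a WT genotype and day 3 for both groups, with no dose, whereas the study's text gives a dose and another duration. The fluoxetine libraries are titled PP, which the labels do not explain, and were grouped by their treatment label. All 4 libraries carry the transgenes of the line. LASCPC-01 is a single line, and nothing in the labels says whether the libraries of a group came from separate cultures, so p-values measure only the spread between these libraries.

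The cells agreed in part with their label. Among neuroendocrine markers, NCAM1, ENO2, INSM1 and SOX2 were at a mean of 1 FPKM or more, whereas SYP, CHGA, CHGB, NEUROD1 and FOXA2 were below it. MYCN and AKT1, the genes that define the line, summed to between 395 and 455 FPKM. The luminal prostate genes KLK3 and KLK2 were below 1 FPKM. Among markers of other cells a culture could hold, PTPRC of leukocytes and PECAM1 of endothelium were below 1 FPKM and COL1A1 of fibroblasts was above it, with a sum of 1.86 to 2.77 FPKM. The depth by which the deposited values had been divided was between 32873603 and 34831389 reads, so that 1 read on a gene of 1 kb was worth 0.0287 to 0.0304 FPKM.

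SLX1A and SLX1B encode the same structure-specific endonuclease, which acts with the scaffold protein SLX4 to cut branched DNA such as Holliday junctions and is known for its part in DNA repair and telomere upkeep. The SULT1A genes encode cytosolic sulfotransferases that move sulfate from the donor PAPS onto phenols, and SULT1A3 and SULT1A4 encode the form that prefers catecholamines such as dopamine. BOLA2 and BOLA2B encode one small protein that works with cytosolic glutaredoxin in handling iron-sulfur clusters. EIF3C is a core subunit of translation initiation factor eIF3, which helps to bring mRNA to the small ribosomal subunit, and EIF3CL is its near-identical copy. Segmental duplications of this kind are known for recurrent deletions and duplications of the genes between them, and a short read from one copy can often be placed on another just as well.

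The reference sequence shows how little tells these copies apart. In GENCODE 29 on GRCh38, SLX1B lies at chr16:29454501-29458219 and SLX1A at chr16:30193887-30197561, both on the plus strand, and their coding sequences were identical over all 825 bases. In the longest coding transcript of SLX1A, 942 of 942 windows of 150 bases, the length of 1 read, were also found in another gene, and in SLX1B 44 of 1016 windows were unique. The regions around the starts of both genes were also the same. RefSeq windows on GRCh38.p14 that run from 250 bases before to 50 bases after the start, chr16:30193625-30193924 for SLX1A and chr16:29454283-29454582 for SLX1B, were identical over 300 bases with 63.0% GC. This window is shown because both SLX1 genes start in it and their measured levels differed, with a CCAAT pentamer in capitals:
SLX1A and SLX1B start region, plus strand: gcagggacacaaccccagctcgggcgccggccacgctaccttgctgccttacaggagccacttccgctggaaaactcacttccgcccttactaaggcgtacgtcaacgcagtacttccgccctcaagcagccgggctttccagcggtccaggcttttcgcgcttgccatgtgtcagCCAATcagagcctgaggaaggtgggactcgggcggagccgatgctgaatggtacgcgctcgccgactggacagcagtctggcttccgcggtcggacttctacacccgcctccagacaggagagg

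Motifs were searched on both strands, and their matches here do not overlap. The pentamer CCAAT was found in this window and in 34.6% of the 35116 start windows of the genome. The GC-rich hexamer GGGCGG was found in it and in 45.0% of them. The hexamer TATAAA, held by 11.5% of all windows, was not in it, which says nothing of any factor. BOLA2 and BOLA2B start on the minus strand in the same stretches, and exons of SLX1B and BOLA2 overlap on opposite strands over 464 bases, 18.8% of the exon bases of SLX1B. Exons of SLX1A and BOLA2B overlap over 420 bases, 17.0% of those of SLX1A. A strand setting for the read counting is not given in the sources used here. Whether reads of these opposite-strand genes were told apart where they overlap is therefore not known.

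The other pairs were as close. The coding sequences of SULT1A3, at chr16:30199228-30204310, and SULT1A4, at chr16:29459889-29464976, were identical over 885 bases, and 96.5% and 99.0% of the windows of their transcripts were shared with another gene. Their RefSeq start windows, chr16:30199005-30199304 and chr16:29459663-29459962, were identical too. BOLA2, at chr16:29443056-29454964, and BOLA2B, at chr16:30192934-30194306, were identical over 456 coding bases, and no window of either was unique. EIF3C, at chr16:28688558-28735730, and EIF3CL, at chr16:28379579-28403879 on the minus strand, differed by 0 substitutions and 3 gap bases, with an identity of 99.9%, and EIF3C had 198 of 2996 unique windows and EIF3CL 138 of 2936. SULT1A1, at chr16:28605196-28623625 on the minus strand, was the exception among the members measured, with 2.32% of its windows shared and 49 substitutions against SULT1A3 over 885 coding bases. A stretch dense in these differences is shown because such bases let a read be placed on SULT1A1 or on SULT1A3, with the 12 differing bases in capitals and coding positions 208 to 267 counted from the start codon:
SULT1A1: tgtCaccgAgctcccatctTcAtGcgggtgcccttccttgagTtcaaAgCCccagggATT
SULT1A3: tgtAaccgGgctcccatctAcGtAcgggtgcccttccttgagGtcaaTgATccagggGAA

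**Figure D1:**
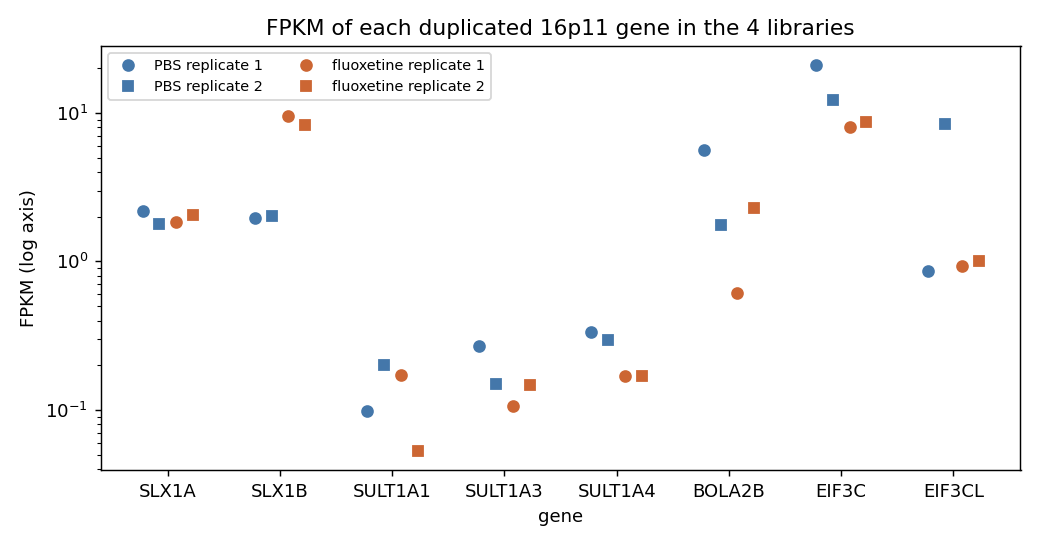
FPKM (log axis) of the 8 duplicated genes measured, with 1 point for each of the 4 libraries, blue for PBS, orange for fluoxetine, circles for replicate 1 and squares for replicate 2. SLX1B sits near 2 FPKM in both PBS libraries and at 8.28 and 9.49 FPKM with fluoxetine, SLX1A stays between 1.78 and 2.19 FPKM, and EIF3CL stands at 8.45 FPKM in PBS replicate 2 against 0.856 to 1.0 FPKM elsewhere.

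In PBS, the members ranged from EIF3C, at 12.1 to 20.9 FPKM, down to SULT1A1, at 0.0984 to 0.200 FPKM. The ranges of EIF3CL, BOLA2B, SLX1A and SLX1B overlapped, so their order was not set by these libraries, and so did those of SULT1A3 and SULT1A1. In fluoxetine, SLX1B and EIF3C were highest, and their ranges of 8.28 to 9.49 and 8.03 to 8.64 FPKM overlapped. SLX1A, BOLA2B and EIF3CL followed, then the 3 SULT1A genes, each below 0.2 FPKM in both fluoxetine libraries.

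SLX1B was higher in fluoxetine, whereas SLX1A, which has the same coding sequence, had nearly the same mean in both groups. SLX1B was at 1.96 and 2.03 FPKM in PBS and at 9.49 and 8.28 FPKM in fluoxetine. Both fluoxetine libraries were far above both PBS libraries, with means of 8.89 ± 0.859 (SD, n = 2) against 1.99 ± 0.0472 FPKM. The ratio of the means was 4.46, and the log2 fold change of FPKM + 0.1 was 2.10 (SE 0.12). The contrast chose this gene, so the values are a description. Of the 10580 genes with a mean of at least 1 FPKM, 0 had a larger log2 fold change, and 1 of all 12663 genes tested did.

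SLX1A was at 2.19 and 1.78 FPKM in PBS and at 1.85 and 2.05 FPKM in fluoxetine. The groups overlapped, and the log2 fold change was -0.02 (SE 0.16), within a difference of 0.29 between the PBS replicates. The smallest whole numbers of reads that gave these FPKM were 84, 72, 75 and 83 for SLX1A and 75, 82, 385 and 336 for SLX1B, in the order PBS replicates 1 and 2 and fluoxetine replicates 1 and 2. True read numbers can be multiples of these.

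The summed FPKM of the 2 SLX1 genes was 2.72-fold higher in fluoxetine. It was 4.15 and 3.80 FPKM in PBS and 11.3 and 10.3 FPKM in fluoxetine. The sum does not depend on how counted reads were divided between the copies, whose implied lengths are both 1165 bases. Reads that were dropped as multiply placed, or counted on another gene, would be missing from it. The groups were well apart, with replicate differences of 0.12 and 0.13 on the log2 scale and a log2 fold change of 1.42 (SE 0.10). SLX1B took 47.2% of the reads of the pair in PBS replicate 1 (95% exact Clopper-Pearson interval 39.2 to 55.2%) and 53.2% in PBS replicate 2 (45.0 to 61.3%), that is, about as many as SLX1A. It took 83.7% in fluoxetine replicate 1 (80.0 to 87.0%) and 80.2% in fluoxetine replicate 2 (76.0 to 83.9%). These intervals cover counting error only and take the recovered reads as they stand. They rest on 159, 154, 460 and 419 reads of the pair.

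**Figure D2:**
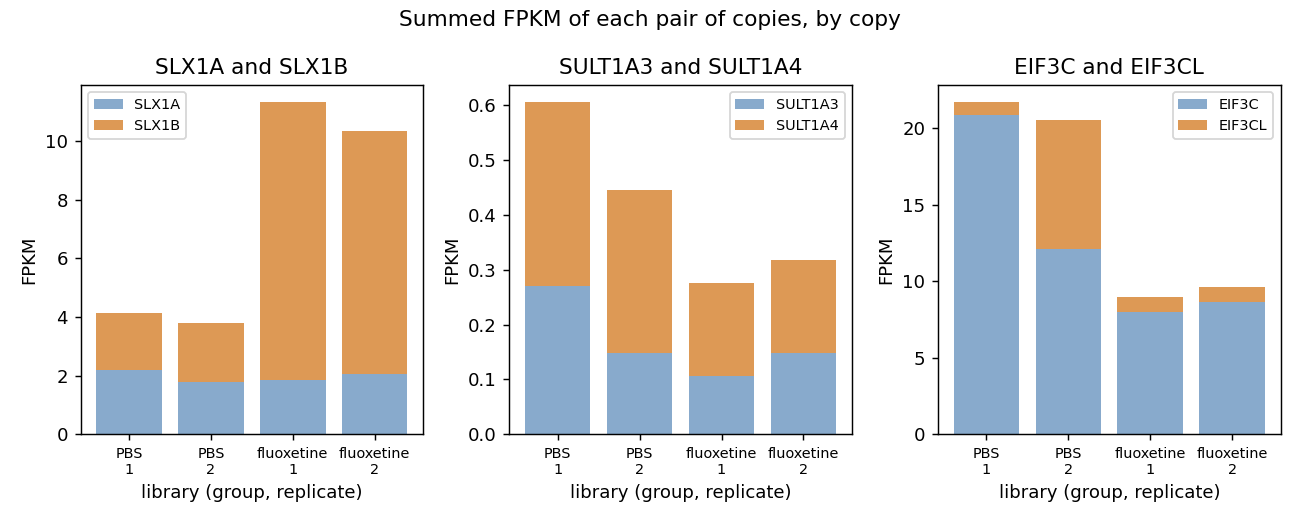
Summed FPKM of each pair of near-identical copies in the 4 libraries (bars from 0, linear axes with a scale of their own for each pair), with the part of each copy in blue (SLX1A, SULT1A3, EIF3C) and orange (SLX1B, SULT1A4, EIF3CL). The SLX1 sum is 11.3 and 10.3 FPKM with fluoxetine, nearly all of the addition lies in SLX1B, and the 2 PBS bars of the EIF3C pair have nearly the same height, 21.8 and 20.5 FPKM, but are divided differently.

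Both SLX1 genes have a read-through gene that joins them to the SULT1A gene next to them. Exons of SLX1B-SULT1A4 cover 63.6% of the exon bases of SLX1B and 85.2% of those of SULT1A4, and exons of SLX1A-SULT1A3 cover 86.0% of those of SLX1A and 70.7% of those of SULT1A3. Neither read-through gene was in the table used here. SULT1A4, downstream of SLX1B, was not higher in fluoxetine, as described with the SULT1A genes.

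The log2 fold changes of EIF3C and of EIF3CL each varied with the PBS library left out. EIF3C was at 20.9 and 12.1 FPKM in PBS and at 8.03 and 8.64 FPKM in fluoxetine. EIF3C was thus lower in each fluoxetine library than in either PBS library, and the log2 fold change was -0.92 (SE 0.18), but it was -0.53 without PBS replicate 1 and -1.32 without PBS replicate 2. EIF3CL was at 0.856 and 8.45 FPKM in PBS and at 0.931 and 1.0 FPKM in fluoxetine. PBS replicate 2 alone was high and the groups overlapped. The log2 fold change of EIF3CL was -1.42 (SE 0.66), -3.0 without PBS replicate 1 and 0.16 without PBS replicate 2, so that its direction turned with 1 library.

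On the FPKM scale, the sum of the pair was close in the PBS replicates. EIF3C and EIF3CL together were at 21.8 and 20.5 FPKM in PBS and at 8.96 and 9.64 FPKM in fluoxetine, with means of 21.2 ± 0.854 and 9.30 ± 0.483 FPKM (SD, n = 2). The sum was thus 2.27-fold lower in fluoxetine, with a log2 fold change of -1.18 (SE 0.08) that stayed between -1.23 and -1.12 when any 1 library was left out. EIF3CL took 3.93% of the summed FPKM in PBS replicate 1 and 41.1% in PBS replicate 2, against 10.4% in each fluoxetine library. By recovered reads, which imply a length of 1635 bases for EIF3CL against 3085 bases of its GENCODE 29 transcript and so may understate its reads, the shares were 1.99% of 2310, 25.7% of 1866, 5.44% of 974 and 5.43% of 1049 reads. Taken as they stand, the reads of the pair in the PBS replicates, 2310 and 1866, were further apart than the FPKM sums. With implied lengths of 3295 bases for EIF3C and 1635 for EIF3CL, a read on EIF3CL would weigh more. The 1635 bases are, however, fewer than the 2742 coding bases of EIF3CL, so its true reads and length may be multiples of those recovered. Whether the FPKM sum depends on how reads were divided between the copies is therefore not known. Of the genes with a mean of at least 1 FPKM, 10 had a lower log2 fold change than the FPKM sum.

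The difference between the PBS replicates of each copy was out of keeping with genes of like level, meaning those with a mean FPKM within a factor of 2. On the log2 scale it was 0.78 for EIF3C, and 0 of 4306 genes of like level differed as much, with a median of 0.0850. For EIF3CL it was 3.16, and 1 of 2806 genes of like level differed as much. The sum differed by 0.0820 against a median of 0.0841, and 51.1% of the 4177 genes of like level differed as much. In fluoxetine, the replicate differences of EIF3C, EIF3CL and their sum were 0.10, 0.09 and 0.10. The recovered reads were 2264, 1386, 921 and 992 for EIF3C and 46, 480, 53 and 57 for EIF3CL, so that PBS replicate 2 had fewer reads than PBS replicate 1 on EIF3C and more on EIF3CL. Whether the division comes from the read placement was not tested.

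The other eIF3 subunits were more abundant, with small log2 fold changes. Of 12 other subunit genes, all were tested and 0 had an adjusted p under 0.05 (limma, Benjamini-Hochberg over all genes tested). At an unadjusted p under 0.05 there were also 0. Of all 12663 genes tested, 0.237% and 8.51% were under these limits. A list this short would rarely hold a called gene, so 0 called is not read as a result about its genes. The same holds for the lists below. Log2 fold changes of the 12 subunit genes had a median of 0.03 and ran from -0.05 to 0.13, with a median of -0.02 over all genes. The 4 with the highest FPKM were EIF3K at 313 ± 21.7 and 342 ± 9.39 FPKM in PBS and fluoxetine, EIF3G at 207 ± 11.9 and 214 ± 6.57, EIF3D at 199 ± 0.329 and 200.4 ± 6.59, and EIF3I at 169 ± 1.46 and 177 ± 5.20 (SD, n = 2). The median of the 12 subunits was 6.32 and 6.88 times the EIF3C sum in PBS and 16.7 and 14.1 times in fluoxetine. Even the lowest of them, EIF3F, was 1.44 and 1.53 times the sum in PBS and 3.81 and 3.37 times in fluoxetine. These comparisons between genes are per length, on the FPKM scale.

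**Figure D3:**
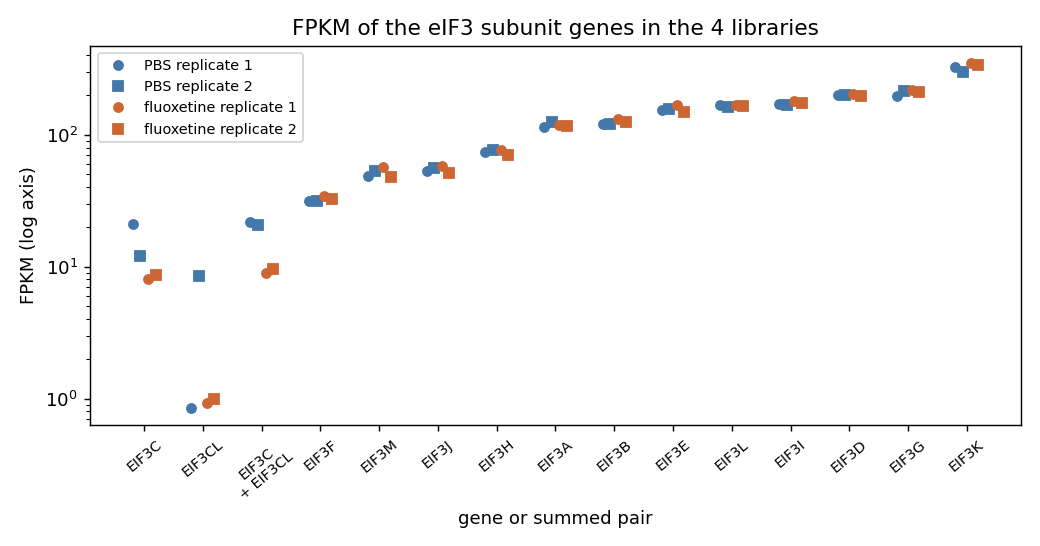
FPKM (log axis) of EIF3C, EIF3CL, their sum and the 12 other eIF3 subunit genes, with 1 point per library in blue for PBS and orange for fluoxetine. The other subunits overlap or nearly overlap between groups from 31.3 FPKM upward, and the sum of EIF3C and EIF3CL lies below all of them and is lower in both fluoxetine libraries.

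BOLA2B varied as much within a group as between groups. It was at 5.60 and 1.76 FPKM in PBS and at 0.613 and 2.30 FPKM in fluoxetine. The highest library was of PBS and the lowest of fluoxetine, but fluoxetine replicate 2 was above PBS replicate 2. The log2 fold change was -1.32 (SE 0.51), and it ran from -0.44 without fluoxetine replicate 1 and -0.51 without PBS replicate 1 to -2.12 without PBS replicate 2 and -2.19 without fluoxetine replicate 2. The replicates differed by 1.61 in PBS and 1.75 in fluoxetine on the log2 scale, and of 2630 genes of like level 5 and 3 differed as much.

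BOLA2-SMG1P6, a read-through gene that shares 74.2% of the exon bases of BOLA2, did not follow BOLA2B. It was at 1.99 and 1.76 FPKM in PBS and at 3.50 and 1.88 FPKM in fluoxetine, so that fluoxetine replicate 1, lowest for BOLA2B, was highest here. The groups overlapped, with a log2 fold change of 0.44 (SE 0.23, adjusted p = 0.604 by limma). The recovered reads were 69, 23, 8 and 30 for BOLA2B and 135, 126, 251 and 135 for BOLA2-SMG1P6. The 2 rows imply gene lengths of 375 and 2060 bases, and how reads common to them were assigned was not tested. The 375 bases are fewer than the 456 coding bases of BOLA2B, so its true reads may be multiples of those recovered. With BOLA2 itself not measured, no sum of the BOLA2 genes was made.

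Other BOLA and iron-sulfur genes were tested in the same way. Of 20 symbols listed for this pathway, FAM96B being an older name of CIAO2B, 19 were in the table and tested. Of these 19, 0 had an adjusted p under 0.05 and 2 an unadjusted p under 0.05, against 0.237% and 8.51% of all genes. The median log2 fold change of the 19 was 0.07, and 15 were above 0. The 4 highest were CIAO2B, of the cytosolic targeting complex (log2 fold change 0.14), GLRX5, a mitochondrial glutaredoxin (0.11), BOLA3, the mitochondrial relative of BOLA2 (0.02), and GLRX, a cytosolic glutaredoxin (0.07).

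The SULT1A genes rested on 4 to 15 recovered reads in each library. SULT1A4 was at 0.336 and 0.297 FPKM in PBS and at 0.169 and 0.169 FPKM in fluoxetine, from 15, 14, 8 and 8 recovered reads. The groups did not overlap, fluoxetine being the lower, with a log2 fold change of -0.63 (SE 0.33) that was -0.90 as a ratio of group means without the pseudocount. SULT1A3 was at 0.269 and 0.149 FPKM in PBS and at 0.106 and 0.148 FPKM in fluoxetine, from 12, 7, 5 and 7 reads. PBS replicate 2 and fluoxetine replicate 2 had the same number of reads and were apart only by their depth, and the log2 fold change was -0.42 (SE 0.39). It was -0.14 without PBS replicate 1 and -0.71 without PBS replicate 2.

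Together SULT1A3 and SULT1A4 were at 0.606 and 0.446 FPKM in PBS and at 0.276 and 0.318 FPKM in fluoxetine. The groups did not overlap, with a ratio of means of 1.77 toward PBS and a log2 fold change of -0.65 (SE 0.28). The sums rest on 27, 21, 13 and 15 reads. SULT1A4 took between 53.3% and 66.7% of these reads, and the exact intervals, the widest from 26.6 to 78.7%, do not tell the libraries apart. The division between these copies was therefore not resolvable at this depth.

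SULT1A1, the most distinct of the members measured, was at 0.0984 and 0.200 FPKM in PBS and at 0.173 and 0.0531 FPKM in fluoxetine, from 7, 15, 13 and 4 reads. The groups overlapped, with a log2 fold change of -0.25 (SE 0.45) that turned to 0.04 without PBS replicate 2 and to 0.16 without fluoxetine replicate 2. A difference of SULT1A1 between the groups was not detectable at this depth.

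Sulfation by other enzymes was better covered. Of 20 symbols for other sulfotransferases, donor synthesis and transport, IMPAD1 being an older name of BPNT2, 15 were in the table and 12 tested. Of these 12, 0 had an adjusted p under 0.05 and 2 an unadjusted p under 0.05, against 0.237% and 8.51% of all genes. The median log2 fold change of the 12 was 0.04. PAPSS1, which makes the sulfate donor PAPS, was at 26.9 ± 1.11 FPKM in PBS and 26.5 ± 0.729 FPKM in fluoxetine (SD, n = 2, limma adjusted p = 0.960). PAPSS2, the second synthase, was at 0.0757 ± 0.0140 and 0.136 ± 0.0384 FPKM (adjusted p = 0.775). SULT2B1, a sulfotransferase for sterols, was at 28.5 ± 2.91 and 28.5 ± 0.636 FPKM, far above the SULT1A genes, SLC35B2, a PAPS carrier of the Golgi membrane, had a log2 fold change of 0.07, and BPNT2, a phosphatase of the Golgi that acts on a product of sulfation, one of -0.11.

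Genes for proteins that work with SLX1 had log2 fold changes of -0.19 to 0.16. All 16 genes of the list of SLX1 partners, structure-specific nucleases and Holliday junction enzymes were tested. Of these 16, 0 had an adjusted p under 0.05 and 0 an unadjusted p under 0.05, against 0.237% and 8.51% of all genes. The median log2 fold change of the 16 was 0.01, with 9 above and 7 below 0. SLX4, the scaffold that binds SLX1, was at 6.86 and 7.58 FPKM in PBS and at 6.13 and 6.80 FPKM in fluoxetine, with a log2 fold change of -0.16 (limma adjusted p = 0.648). The 4 highest of the list were FEN1, a flap endonuclease (log2 fold change 0.16), TERF2IP (0.10) and TERF2 (0.01) of the telomere, and MUS81, a nuclease that also binds SLX4 (0.04).

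Single-copy genes of the same region were tested as well. Between the SLX1B and SLX1A blocks, 20 of 28 symbols were tested, 25 being in the table and FAM57B being an older name of TLCD3B. Of these 20, 0 had an adjusted p under 0.05 and 1 an unadjusted p under 0.05, against 0.237% and 8.51% of all genes. The median log2 fold change was 0.07, in a range of -0.65 to 0.35. The 4 highest of these were the transcription factor MAZ (0.11), the vault protein MVP (0.06), the actin-binding CORO1A (0.15) and the phosphatase subunit PPP4C (0.15). Beside EIF3C, EIF3CL and SULT1A1, 12 of 17 symbols were tested, 14 being in the table and CCDC101 being an older name of SGF29. Of these 12, 0 were at an adjusted and 0 at an unadjusted p under 0.05, against the same shares, and the median was 0.03. The 4 highest there were TUFM, a mitochondrial elongation factor (0.06), ATXN2L (-0.13), the exportin XPO6 (0.01) and the adaptor SH2B1 (0.04).

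**Figure D4:**
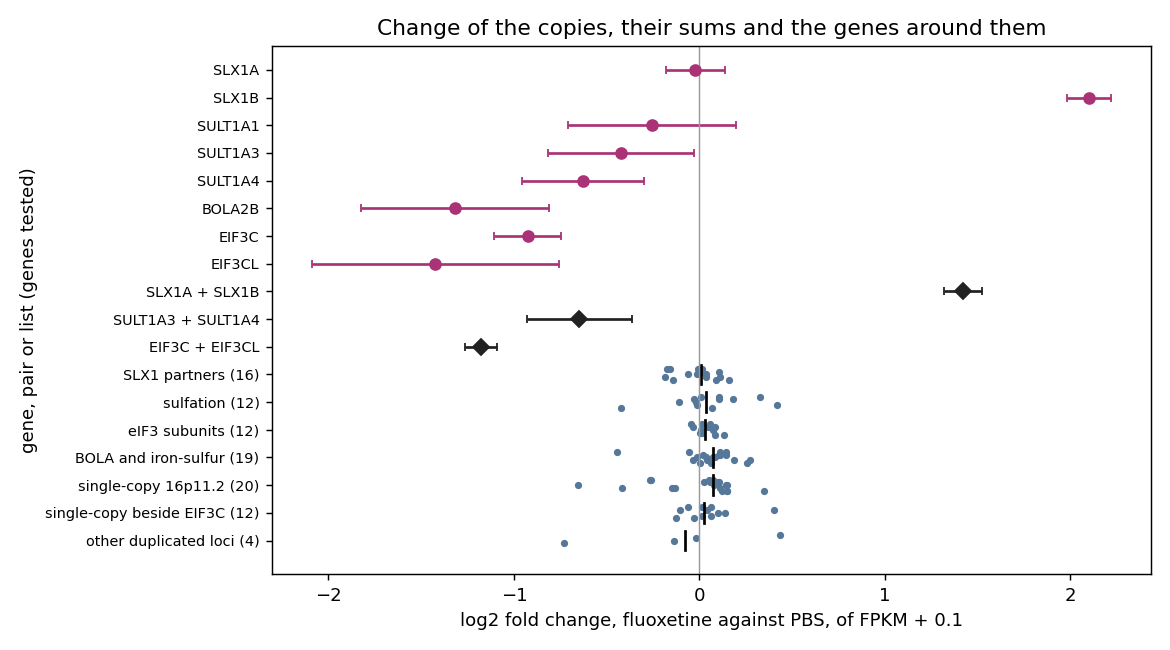
Log2 fold change of FPKM + 0.1 (fluoxetine against PBS) with bars of 1 SE for each duplicated gene (magenta) and summed pair (black diamonds), and without bars for the genes of the 7 lists (blue points, number tested in parentheses, black tick at the median). SLX1B (2.10) and the EIF3C pair (-1.18) lie outside the range of the list genes, whose medians run from -0.08 to 0.07.

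Other duplicated loci of the blocks could be tested only in part. Of 13 on the list, 7 were in the table and 4 were tested. Of these 4, 0 had an adjusted p under 0.05 and 0 an unadjusted p under 0.05, against 0.237% and 8.51% of all genes. NPIPB13 was at 0.460 and 1.58 FPKM in PBS and at 0.442 and 0.529 FPKM in fluoxetine, from 59, 214, 60 and 72 recovered reads, with a log2 fold change of -0.73 (adjusted p = 0.613 by limma). As for EIF3CL, PBS replicate 2 alone was high, and its PBS replicates differed by 1.58 on the log2 scale. Such differences were not limited to duplicated loci. Among the single-copy genes listed, the PBS replicates of LAT (11 and 59 reads) differed by 1.87 and those of GDPD3 (5 and 21 reads) by 1.45. PBS replicate 2 was the higher in both, and the other single-copy genes differed by less. NPIPB11 (log2 fold change -0.02) and NPIPB12 (-0.14) overlapped between groups, and NPIPB6, NPIPB8 and NPIPB9 had 0 to 3 reads in each library.

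The limma test with Benjamini-Hochberg adjustment called 30 of 12663 genes at 0.05, that is 0.237%, and 8.51% were under 0.05 before adjustment. Of the 8 members, 1, SLX1B, was among the 30. The fluoxetine libraries were both above the PBS libraries for 1 member, against 16.7% of all genes, both below for 3 members (EIF3C, SULT1A3 and SULT1A4), against 24.8%, and overlapped for 4. As the contrast itself chose the members, nothing is read from these counts. For a single gene, an exact two-sided permutation test of 2 against 2 libraries could not go below p = 0.33.

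The genes whose pattern over the 4 libraries was most like that of SLX1B were found by Euclidean distance of centred log2(FPKM + 0.1) among genes with a mean of at least 1 FPKM. The nearest 5 were the histone gene H2AC20 (distance 1.11), LEAP2 (1.15), a second histone gene H2AC15 (1.29), MUCL1 (1.34) and TMEM191C (1.38), with log2 fold changes of 1.10, 1.10, 0.82, 0.82 and 0.73. H2AC20, the nearest, was at 1.54 and 1.22 FPKM in PBS and at 2.68 and 3.49 FPKM in fluoxetine. SLX1B was chosen for the largest rise among genes at 1 FPKM or more, so all 5 log2 fold changes were bound to lie below its own.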

How the data were processed

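RNA of 2 PBS and 2 fluoxetine libraries was sequenced by the authors as paired reads of 150 bases. The authors deposited 1 FPKM value per gene and library. The submitters' processing notes name fastp, HISAT2, HTSeq and GRCh38, and the versions, annotation and strand setting are not given in the sources used here. The labels name a stranded TruSeq kit and the methods another, so strandedness is open, and multiply placed reads of near-identical copies could be dropped or divided before FPKM were made. Groups came from the treatment labels.

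FPKM are not counts, so limma 3.58.1 in R 4.3.3 (lmFit, eBayes with a variance trend) was run on log2(FPKM + 0.1) for genes with a mean of at least 0.1 FPKM, with Benjamini-Hochberg adjustment over all genes tested, and pairs were refitted as sums. The pseudocount understates changes of low genes. The fit was tested on simulated data. Members and lists were chosen with earlier results of these data known, so members carry no p-value. Reads were recovered as the smallest whole numbers (within 0.004) whose ratios give the FPKM, with the depth shared by 51 genes at their GENCODE 29 exon lengths. All 116 named genes above 0 were solved, and the precision is that of these reads. Copies were compared in 150-base windows of GENCODE 29 transcripts in Python 3.11.15 with Biopython 1.88, and start windows came from RefSeq. From each list, genes with an adjusted p under 0.05 and otherwise the 4 with the highest mean FPKM were to be named, with SLX4, PAPSS1, PAPSS2 and all loci of the duplicated list. Results for some marker genes are not reported here. Alternatives were other pseudocounts, filters and scalings, eBayes without the trend, a replicate block and each library left out.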

Additional observations from a re-analysis of the deposited data

How the results depend on the processing

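The log2 fold changes of the copies kept their direction under other pseudocounts, filters, scalings and moderation for all but SLX1A, which stayed between -0.07 and 0.07. A pseudocount of 1 lowered their size, to 1.72 for SLX1B, -0.10 for SULT1A3, -0.17 for SULT1A4, 1.25 for the SLX1 sum, -0.23 for the SULT1A3 and SULT1A4 sum and -1.10 for the EIF3C sum. SULT1A4 was also at -0.86 with a pseudocount of 0.01, -0.82 on a TPM scale, -0.49 after quantile normalization and -0.90 as a ratio of group means, and the EIF3C sum was at -1.09 from summed recovered reads, which may understate EIF3CL, the last 2 settings being chosen after seeing the data. With 1 library left out, the values ran from -0.17 to 0.12 for SLX1A, 2.0 to 2.20 for SLX1B, -0.67 to 0.16 for SULT1A1, -0.71 to -0.14 for SULT1A3, -0.70 to -0.56 for SULT1A4, -2.19 to -0.44 for BOLA2B, -1.32 to -0.53 for EIF3C, -3.0 to 0.16 for EIF3CL, 1.36 to 1.49 for the SLX1 sum, -0.83 to -0.46 for the SULT1A3 and SULT1A4 sum and -1.23 to -1.12 for the EIF3C sum.

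The number of genes with an adjusted p under 0.05, 30 (3 higher, 27 lower), was less stable. It was 0 in either direction without a filter (1175 of 16376 genes at an unadjusted p under 0.05, limma), 0 in either direction when eBayes had no trend (933 of 12663 genes), and 16 (14 lower) after quantile normalization. With a mean of at least 1 FPKM 6 genes were higher, and with median centring 5. With 1 library left out, it fell to between 2 and 12, with 1 to 2 higher and 1 to 11 lower, the lone library being assumed to vary like the other group. The cause was not tested. A fit with the replicate block gave 64 (17 higher, 47 lower), all 30 among them. The deviations of libraries with the same number correlated at 0.035, and whether such libraries were paired was not tested. Counts under 20 reads limit the SULT1A genes, and sequence shared by copies limits the value of each copy other than SULT1A1.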
